A study of Mus musculus with 23 samples.

Results

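The genes described here are 7 enzymes of heme synthesis (Alas1, Alas2, Alad, Urod, Cpox, Ppox and Fech) and 2 globins (Hbb-bt and Hba-a1) in mouse liver. They were chosen by symbol, as 9 of the 24475 genes of the deposited RPKM table, by a rule that uses no measured value but was set with earlier results of these data known. All 9 passed the filter on low values, as did 11939 genes in all. Uros, a further enzyme of the pathway, and the other adult globin rows of the table were used beside them.

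The libraries came from livers of male C57BL/6J mice kept on regular chow or a high-fat diet (HFD) over 4 months. All animals then received 10 mg/kg of an antibody during 3 further weeks, either REGN1193, which blocks the glucagon receptor (GCGR), or an isotype control. The labels name the second antibody REGN496, and it was taken as the control by elimination. Libraries 1 to 5 were chow with control antibody (n = 5), 6 to 11 chow with GCGR antibody (n = 6), 12 to 17 HFD with control antibody (n = 6) and 18 to 23 HFD with GCGR antibody (n = 6). No group was left without an antibody, so every comparison is against an antibody-treated group. The labels do not state that each library is a separate mouse, so p-values reflect sample-to-sample spread, which may be technical in part. They also give no batch and no time of day for the sampling.

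Heme is built from glycine and succinyl-CoA in a chain of enzymes that begins and ends in the mitochondrion. The first enzyme is made by a pair of genes: Alas1, which is expressed in all tissues, is repressed by heme and in liver is induced by fasting and by drugs, and Alas2, which serves hemoglobin synthesis in red cell precursors. The liver uses much of its heme for cytochromes P450, and the globins bind heme in hemoglobin. Since globin transcripts mark red cells and their precursors, in bulk liver RNA fewer cells of a type and less RNA per cell cannot be told apart.

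Short stretches of reference sequence are shown first, because they bear on how these genes are read and what their promoters hold. The promoters come from RefSeq on build GRCm38.p6 and were found for 8 of the 9 genes, Fech being the ninth. Promoters were searched over the 250 bases before each start, on both strands, for AGATAA and TGATAA, which are forms of the site of the erythroid GATA factors, and for GCGCATGC, part of the palindrome of the respiratory factor NRF1. Capitals mark the match, which on the printed strand may be the reverse complement (TTATCT or TTATCA). The Alas2 stretch is chrX:150547304-150547363 (plus strand), that of Cpox chr16:58670080-58670169 (plus), that of Hba-a1 chr11:32283462-32283521 (plus) and that of Alas1 chr9:106247906-106247935 (minus).
Alas2: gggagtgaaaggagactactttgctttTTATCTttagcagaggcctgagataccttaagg
Cpox: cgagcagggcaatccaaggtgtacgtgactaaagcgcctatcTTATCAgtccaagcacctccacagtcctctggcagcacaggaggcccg
Hba-a1: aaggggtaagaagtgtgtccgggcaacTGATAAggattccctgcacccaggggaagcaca
Alas1: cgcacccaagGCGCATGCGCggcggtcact
Alas2, Cpox and Hba-a1 held a GATA-type match, and either form stood in 16.6% of all 32851 promoters of the same length (AGATAA in 9.99%, TGATAA in 7.94%). For Alas1 the table lists 2 starts, and GCGCATGC stood before 1 of them, on both strands of the palindrome, against 2.26% of all promoters. The other promoters searched held none of these letters. A match describes the letters and is not a measured binding site.

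The second pair of sequences shows why the globin rows must be read with care. The coding sequences of Hba-a1 and Hba-a2, taken from GENCODE transcripts, are each 429 bases long. They differ at 1 base, C381T, counted from the A of the start codon, with Hba-a1 first. Bases 351 to 411 of each are printed with that base in capitals.
Hba-a1: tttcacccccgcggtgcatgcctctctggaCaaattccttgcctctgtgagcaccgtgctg
Hba-a2: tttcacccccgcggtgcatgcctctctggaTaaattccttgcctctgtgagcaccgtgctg
Reads of this study were 33 bases long. Of all 33-base windows in the Hba-a1 transcript 70.9% also occur in another GENCODE gene, as do 59.3% of those of Hbb-bt. The annotation behind the deposited values is not given and may share more: there the Hbb-bt and Hbb-b2 rows held the same value in every library. Of the enzymes, Alas1, Alas2, Alad and Ppox shared no window, Cpox 2.84%, Urod 3.04% and Fech 9.74%.

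Values are RPKM, reads scaled to gene length and to the reads of the library, so levels can be compared between genes, but the number of reads behind a value is unknown. RPKM summed to 594026 to 692295 per library, and 15365 to 16032 genes lay above 0. Fold changes were taken on log2(RPKM + 1), which understates the change of low genes. All 6 hepatocyte markers examined were abundant, with sums of 48230 to 66320 RPKM. Of these the antibody on HFD lowered 1 (Alb). HFD under control antibody raised 1 (Ttr) and lowered 2 (Fgb and Cps1), and HFD under GCGR antibody lowered 2 (Fgb and Cps1). Quantile normalization lost the calls of Ttr (adjusted p = 0.641) and of Fgb under GCGR antibody (0.115). Alb fell by 0.37 as deposited (adjusted p = 0.0137) and had a log2 fold change of 0 after quantile normalization. That method gives a gene of the same rank the same value in every library, so it cannot test the Alb call. Median-ratio scaling added Ttr with the antibody on HFD (0.0471) and Cps1 with the antibody on chow (0.0476), both lower. Of 9 Kupffer cell and erythrophagocyte markers 5 were lower on HFD than on chow under GCGR antibody, and none was called in the other 3 group comparisons. Of all tested genes HFD called 29.8% under GCGR antibody (16.6% lower) and 29.9% under control antibody. The antibody called 7.45% of all tested genes on HFD and 0.946% on chow. Few genes of platelets (3 of 5), neutrophils (2 of 6) and lymphocytes (2 of 6) were high enough to test. Among them Cd3g of lymphocytes was higher with the antibody on HFD and, like the platelet gene Pf4, with HFD under GCGR antibody, while Itga2b was lower on HFD under both antibodies. The part of these markers in the results was not tested. The antibody's target transcript, Gcgr, lay between 102 and 123 RPKM in every library, and since the antibody acts on the protein this does not check the labels.

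Across the 9 genes, the change that set the antibody groups apart was a fall of Alas2 on HFD, and the diet raised Cpox under both antibodies and Hbb-bt under control antibody. On chow the antibody changed 0 of the 9 genes, where 0.946% of all tested genes were called (0.394% higher, 0.553% lower). At an unadjusted p under 0.05 it was also 0 of 9, against 10.8% of all genes, with the smallest p 0.0607 for Urod. The groups overlapped in all 9, while 2.5% of all tested genes had groups that did not overlap. On HFD the antibody lowered 1 of 9, Alas2, against 7.45% of all genes (5.33% higher, 2.12% lower). Alas2 was also the 1 gene of 9 without overlap, against 2.85%. The split of all calls on HFD depended on scaling: 636 higher and 253 lower as deposited, 378 and 501 after median-ratio scaling, and 377 and 412 after quantile normalization. These scalings moved the median of all genes by at most 0.055 on the log2 scale, and Alas2 was lower under each.

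HFD changed 3 of the 9 genes under control antibody, where 29.9% of all genes were called. Cpox and Hbb-bt rose (11.6% of all genes did) and Fech fell (18.3% did). The split of all calls was 1390 higher and 2183 lower as deposited, and 1799 and 1815 after median-ratio scaling. Groups did not overlap in Cpox and Hbb-bt, as in 15.9% of all genes. Under GCGR antibody HFD changed 4 of 9, against 29.8% of all genes. Alas1 and Cpox rose (13.2% of all genes rose) and Alas2 and Ppox fell (16.6% fell), with no overlap in Alas2, Cpox and Ppox, against 10.3% of all genes. With 9 genes, 3 and 4 calls with diet are not far from what the shares of all genes give.

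For none of the 9 was the antibody effect called as different between the diets, a test that called 0.201% of all genes. At an unadjusted p under 0.05 that test gave 3 of 9 (Alas2, Cpox and Hbb-bt), against 9.86% of all genes. Averaged over both diets, the antibody lowered Alas2 and called no other member, against 7.71% of all genes. The antibody effect on HFD and the diet effect under control antibody share the 6 HFD control libraries, and each is given with its own values. The same holds for each other pair of comparisons that have a group in common.

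**Figure D1:**
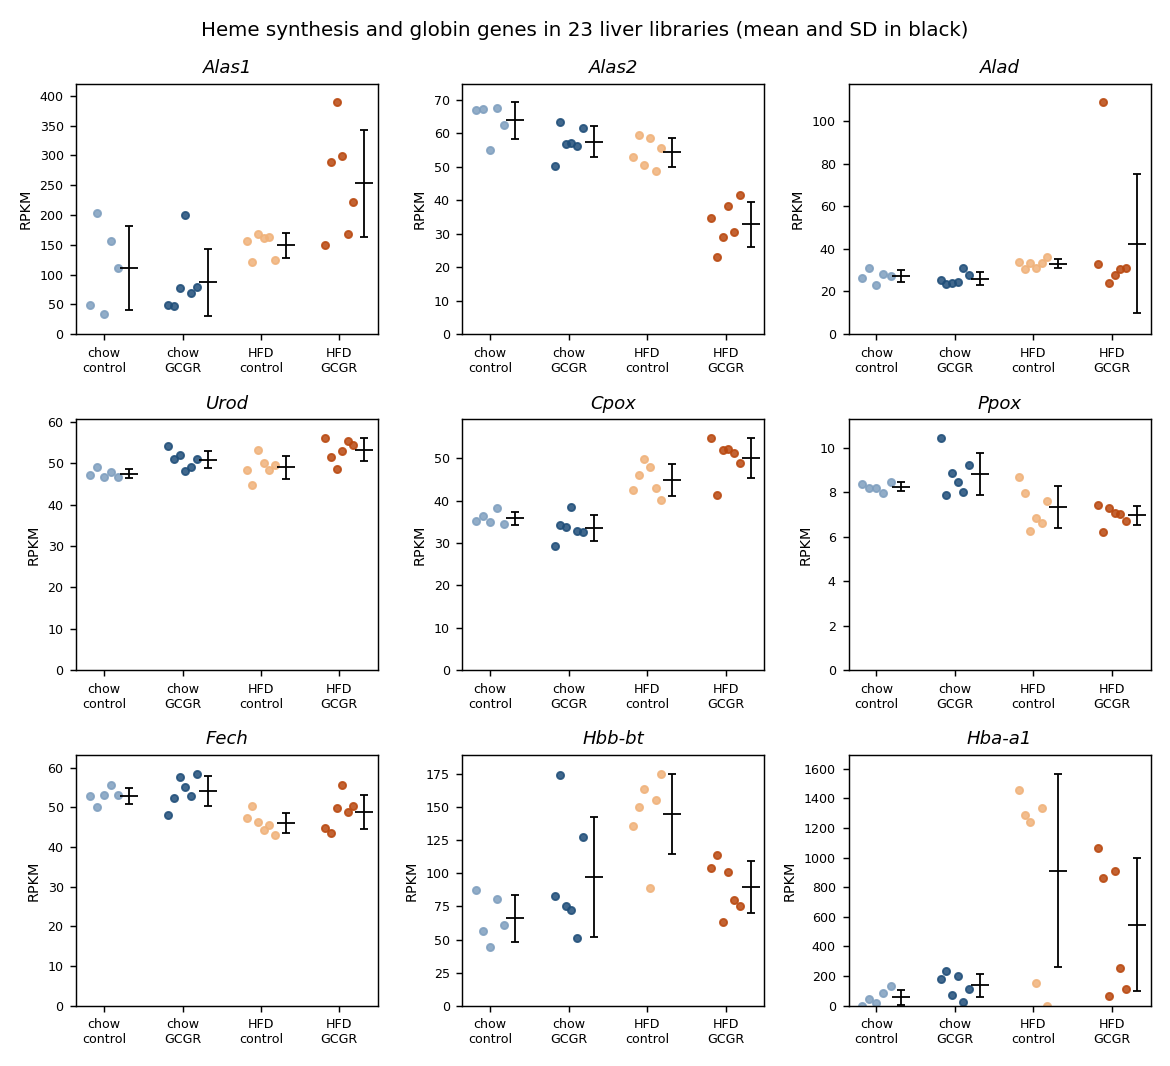
RPKM (vertical axis, from 0, a separate scale in each panel) of the 9 genes in the 4 groups (23 libraries). Each point is 1 library, and the black mark and bar are the group mean and SD. The 6 Alas2 points of HFD with GCGR antibody lie between 22.97 and 41.5, below all other libraries, and 1 Alad point of that group lies at 108.8.

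Alas2, the erythroid form of the first enzyme (gene ID 11656, chromosome X, 150547417 to 150570622), was lower in HFD livers with GCGR antibody than in any other library. On chow with control antibody it stood at 66.9, 67.3, 54.9, 67.6 and 62.3 RPKM. With GCGR antibody on chow it ranged from 50.1 to 63.3 with a median of 57.0. The chow groups overlapped, and the difference did not pass the test (log2 fold change -0.15 ± 0.11 SE, adjusted p = 0.670).

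On HFD, Alas2 ranged from 48.7 to 59.5 with control antibody (median 54.2) and from 22.97 to 41.5 with GCGR antibody (median 32.7). All 6 treated libraries lay below all 6 controls. The means were 54.3 ± 4.33 and 32.9 ± 6.72 RPKM (SD, n = 6 and 6), a fall of 0.73 ± 0.10 on the log2 scale (adjusted p = 8.31e-05). HFD also lowered Alas2 under GCGR antibody, from 57.5 ± 4.65 RPKM (-0.81 ± 0.10, adjusted p = 5.77e-06). Under control antibody the diet difference was -0.23 ± 0.11 (adjusted p = 0.110). It passed the test in 2 of 23 alternatives, such as a fit of those 2 groups alone (adjusted p = 0.0320).

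Averaged over the diets, the antibody lowered Alas2 by 0.44 ± 0.07 (adjusted p = 5.81e-04). The difference between the antibody effects on HFD and on chow was -0.58 ± 0.15, with an unadjusted p of 6.85e-04 and an adjusted p of 0.126, so a larger effect on HFD was not called. The call on HFD held in 24 of 24 alternatives, with log2 fold changes of -0.80 to -0.63 and adjusted p of 2.49e-05 to 0.00515. In order of their means, chow with control antibody (63.8 ± 5.43) was followed by chow with GCGR antibody, HFD with control antibody and HFD with GCGR antibody. Of the neighbours in that order the last pair alone did not overlap.

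Alas1, the form that supplies heme in hepatocytes (gene ID 11655, chromosome 9, 106233455 to 106247954), was the most abundant of the 7 enzymes, with a mean of 152 RPKM over the 23 libraries against 51.6 for Alas2. It was also among the most uneven. On chow with control antibody the 5 libraries held 49.7, 203, 34.2, 156 and 111 RPKM. With GCGR antibody on chow the values ran from 46.6 to 199.6 with a median of 73.3. These groups overlapped over nearly their whole range (-0.25 ± 0.39, adjusted p = 0.880).

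HFD livers held 121 to 167 RPKM of Alas1 with control antibody (median 158) and 149.7 to 389.5 with GCGR antibody (median 256). Of the treated libraries 5 lay above every control, library 22 by a small margin (167.5 against 167.3), and library 18 lay within the control range. The antibody difference on HFD did not pass the test (0.69 ± 0.37, adjusted p = 0.254). Between diets, Alas1 rose under GCGR antibody from 86.7 ± 57.0 to 253 ± 90.6 RPKM (1.64 ± 0.37, adjusted p = 0.00196). Chow library 9, at 199.6, lay above HFD libraries 18 and 22. The diet difference under control antibody was 0.70 ± 0.39 (adjusted p = 0.174), and the effects were not called as different (0.94 ± 0.53, adjusted p = 0.576). By its means Alas1 was lowest on chow with GCGR antibody, then on chow with control antibody, HFD with control antibody and HFD with GCGR antibody, and all neighbours in this order overlapped.

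Relative to the mean, the SD of Alas1 was 64.2% and 65.8% on chow with control and GCGR antibody, 13.7% on HFD with control antibody and 35.8% with GCGR antibody. Of 13 genes that regulate Alas1 or its regulators, HFD under GCGR antibody raised 3 (Ppargc1a, Foxo1 and Nr1i3) and lowered 3 (Nr1d1, Nrf1 and Egr1). Their median log2 fold change was 0.01, and that of all tested genes -0.02. Of all tested genes 13.2% were called higher and 16.6% lower there. Foxo1, a fasting-responsive transcription factor, rose by 0.51 ± 0.10 in that comparison (adjusted p = 5.66e-04), and Nr1d1, a heme-binding repressor of the clock, fell by 1.01 ± 0.19 (adjusted p = 3.40e-04). The antibody on HFD raised 3 (Foxo1, Nr1i3 and Ncor1) and lowered 1 (Nr1d1, -0.60 ± 0.18, adjusted p = 0.0493). After median-ratio scaling that count was 1 higher and 1 lower, and after quantile normalization 2 higher and 0 lower, with Nr1d1 at an adjusted p of 0.0554. Under control antibody HFD lowered 3 (Nrf1, Hnf4a and Ncor1). Among them Nrf1, the factor whose palindrome was searched for above, fell by 0.55 ± 0.09 (adjusted p = 1.10e-04). Its binding at the Alas1 promoter was not measured. Ncor1, a corepressor, rose by 0.32 ± 0.05 with the antibody on HFD (adjusted p = 4.44e-04). On chow the antibody called none of the 13. Of all tested genes the antibody called 7.45% on HFD and 0.946% on chow, and HFD under control antibody called 29.9%. The part of these genes in the Alas1 values was not tested.

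Alad, Uros and Urod, which act in the cytosol, had no called difference. Alad, which joins aminolevulinate into porphobilinogen (gene ID 17025, chromosome 4, 62505984 to 62520063), stood on chow with control antibody at 26.4, 30.9, 22.9, 28.1 and 27.3 RPKM. It ranged from 23.3 to 31.2 on chow with GCGR antibody (median 24.8), from 30.3 to 36.0 on HFD with control antibody (median 33.4) and from 24.0 to 108.8 on HFD with GCGR antibody (median 30.6). The top value came from library 19 alone, and the other 5 libraries of its group lay between 24.0 and 32.7.

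That value was 3.32 times the next highest of the group and 3.58 times the median of the others. The genes on either side of Alad did not stand out in library 19: Hdhd3 was at 13.7 RPKM, within the 12 to 17.6 of the other libraries of the group, and Pole3 at 13.5, within 12.2 to 15.3. Library 19 lay at least 2-fold above the next highest library of its group in 27 tested genes, and at least 3-fold in 11. Library 20 did so at 2-fold in 108 genes and the other 4 libraries in 9 to 15. Alad did not pass any of the tests, with 0.13 ± 0.22 for the antibody on HFD (adjusted p = 0.760) and 0.47 ± 0.22 for HFD under GCGR antibody (adjusted p = 0.113). Without library 19 these became -0.18 ± 0.08 (adjusted p = 0.149) and 0.16 ± 0.08 (adjusted p = 0.173). Without library 20, which held the lowest Alad value of the group, the latter passed the test (adjusted p = 0.0496). For HFD under control antibody Alad differed by 0.28 ± 0.23 (adjusted p = 0.388), and a fit of those 2 groups alone gave an adjusted p of 0.0133. The main fit shares its estimate of the spread with the group of library 19. Without library 19 and with the globin rows summed, the difference was 0.28 ± 0.08 and passed the test (adjusted p = 0.015).

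Uros, which closes the ring, had no called difference and group means of 8.27 to 9.40 RPKM. Urod, which removes carboxyl groups from the ring (gene ID 22275, chromosome 4, 116989965 to 116994436), was the steadiest member. Its 23 values lay between 44.6 and 56.1 RPKM, and its antibody differences were 0.10 ± 0.05 on chow (adjusted p = 0.499) and 0.12 ± 0.05 on HFD (adjusted p = 0.131). Averaged over diets the difference was 0.11 ± 0.03 with an adjusted p of 0.0556, and 5 of 34 alternatives put it past the threshold.

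The last 3 enzymes return the pathway to the mitochondrion. Diet differences were called for Cpox under both antibodies, for Ppox under GCGR antibody alone and for Fech under control antibody alone. Cpox, coproporphyrinogen oxidase (gene ID 12892, chromosome 16, 58670208 to 58680391), rose with HFD under both antibodies. With control antibody the chow libraries stood at 35.2, 36.4, 34.8, 38.2 and 34.6 RPKM, and the HFD libraries at 40.0 to 49.8 (median 44.5). With GCGR antibody chow libraries held 29.4 to 38.6 (median 33.2) and HFD libraries 41.3 to 54.8 (median 51.6). No HFD library overlapped a chow library. The diet difference was 0.31 ± 0.07 under control antibody (adjusted p = 0.00270) and 0.56 ± 0.07 under GCGR antibody (adjusted p = 3.97e-06), and the difference between these was not called (0.25 ± 0.10, adjusted p = 0.413).

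In order of group means, Cpox was at 33.5 ± 3.00 RPKM on chow with GCGR antibody, 35.8 ± 1.51 on chow with control antibody, 44.9 ± 3.68 on HFD with control antibody and 50.0 ± 4.68 on HFD with GCGR antibody. Within each diet the antibody groups overlapped, with differences of -0.10 ± 0.07 on chow (adjusted p = 0.684) and 0.15 ± 0.07 on HFD (adjusted p = 0.180). Without library 19 the latter became 0.20 ± 0.06 and passed the test (adjusted p = 0.0335). Library 19 held the lowest Cpox value of its group, 41.3 RPKM.

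Ppox, protoporphyrinogen oxidase (gene ID 19044, chromosome 1, 171276991 to 171281193), was the least abundant member, with 6.23 to 10.5 RPKM in all libraries. It fell with HFD under GCGR antibody from 8.82 ± 0.95 to 6.96 ± 0.43 RPKM, without overlap (-0.30 ± 0.07, adjusted p = 0.00240). Under control antibody the chow values were 8.37, 8.2, 8.21, 7.95 and 8.49 and the HFD values ranged from 6.25 to 8.71 (median 7.23). This difference was -0.15 ± 0.07 (adjusted p = 0.106) and passed the test only without library 12 among the alternatives tried (-0.20 ± 0.07, adjusted p = 0.0372).

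Fech, ferrochelatase, inserts the iron (gene ID 14151). Its values on chow with control antibody were 52.8, 50.1, 53.1, 55.8 and 53.0 RPKM, and on HFD with control antibody 42.9 to 50.3 (median 46.0), which overlapped by 1 library in each group. It fell with HFD under control antibody by 0.19 ± 0.06 (adjusted p = 0.0209). The call was lost in 4 of 23 alternatives: median-ratio scaling (adjusted p = 0.0865), without library 4 (0.0589), without library 17 (0.0505) and with the summed globin level as a covariate (0.339). Under GCGR antibody the diet difference was -0.15 ± 0.06 (adjusted p = 0.0647), between 48.2 to 58.5 RPKM on chow and 43.4 to 55.6 on HFD. It passed the test in 3 of 24 alternatives: quantile normalization (adjusted p = 0.0115), without library 6 (0.0261) and without library 21 (0.0223).

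**Figure D2:**
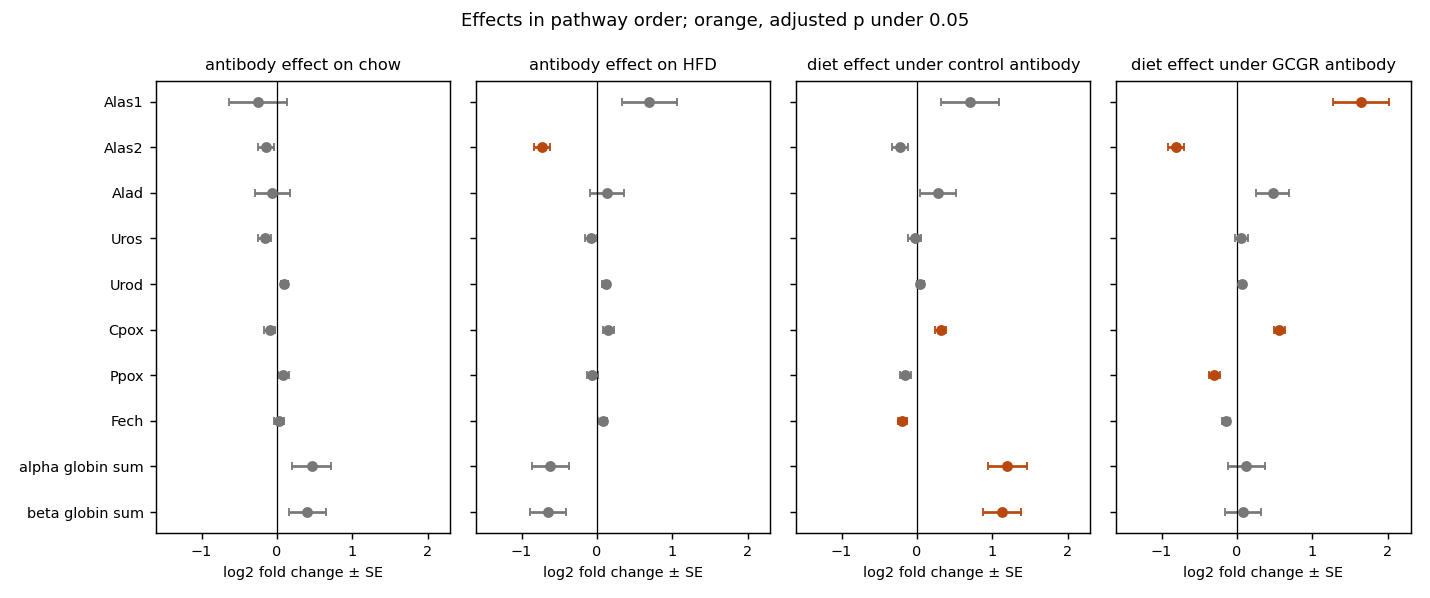
Log2 fold changes (horizontal axis, on log2(RPKM + 1), bars are SE) of the 7 enzymes and Uros in pathway order and of the summed globin rows, for 4 comparisons. Orange points passed an adjusted p of 0.05. Alas2 is at -0.73 for the antibody on HFD, Cpox at 0.31 and 0.56 for diet, and the globin sums at 1.20 and 1.13 for diet under control antibody.

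Of the 2 globin members, HFD under control antibody raised Hbb-bt, and Hba-a1 did not pass the test. Hbb-bt, an adult beta globin (gene ID 101488143, chromosome 7, 103812524 to 103813923), stood at 87.5, 56.4, 44.3, 80.5 and 61.0 RPKM on chow with control antibody. On HFD with control antibody it ranged from 89.3 to 174.8 (median 153), so that every HFD library lay above every chow library. The means were 65.9 ± 17.7 and 145 ± 30.3 RPKM (SD, n = 5 and 6), a difference of 1.13 ± 0.25 (adjusted p = 0.00189).

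With GCGR antibody Hbb-bt ranged from 50.8 to 174.3 RPKM on chow (median 79.1) and from 63.3 to 113.8 on HFD (median 90.5). These groups overlapped, and the diet difference was -0.03 ± 0.24 (adjusted p = 0.947). The difference between the diet effects was -1.16 ± 0.34, with an unadjusted p of 0.00257 and an adjusted p of 0.205. For the antibody itself Hbb-bt differed by 0.48 ± 0.25 on chow (adjusted p = 0.518) and by -0.69 ± 0.24 on HFD (adjusted p = 0.0794). The latter passed the test without library 15 (adjusted p = 0.0418), without library 19 (0.0460) and in a fit of the HFD groups alone (0.0455). The Hbb-bt and Hbb-b2 rows held the same value in 23 of 23 libraries, so both are 1 measurement.

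Hba-a1, an alpha globin (gene ID 15122, chromosome 11, 32283672 to 32284486), had the widest range of the members, and the reason to read it with its copy Hba-a2 is in the table itself. The row held 4.05e-28 RPKM in chow library 1 and 5.23e-26 in HFD library 17, values no whole read can give, beside 1456 RPKM in library 12. The share of the summed alpha globin rows that stood in Hba-a1 ran from 3.795% to 24.2% on chow with GCGR antibody and up to 19.1% on chow with control antibody. On HFD it reached 85.5% with control antibody and 81.7% with GCGR antibody. In library 17 nearly the whole of the highest alpha globin sum, 2311 RPKM, stood in Hba-a2.

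As a single row Hba-a1 was at 56.7 ± 52.6 RPKM on chow and 913 ± 652 on HFD with control antibody, and did not pass the test (3.44 ± 1.51, adjusted p = 0.0891). Without library 17 it did (5.07 ± 1.06, adjusted p = 0.00193). The rows were therefore summed, a choice made after the values were seen: Hba-a1 with Hba-a2, and Hbb-b1 with Hbb-bs and Hbb-bt.

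**Figure D3:**
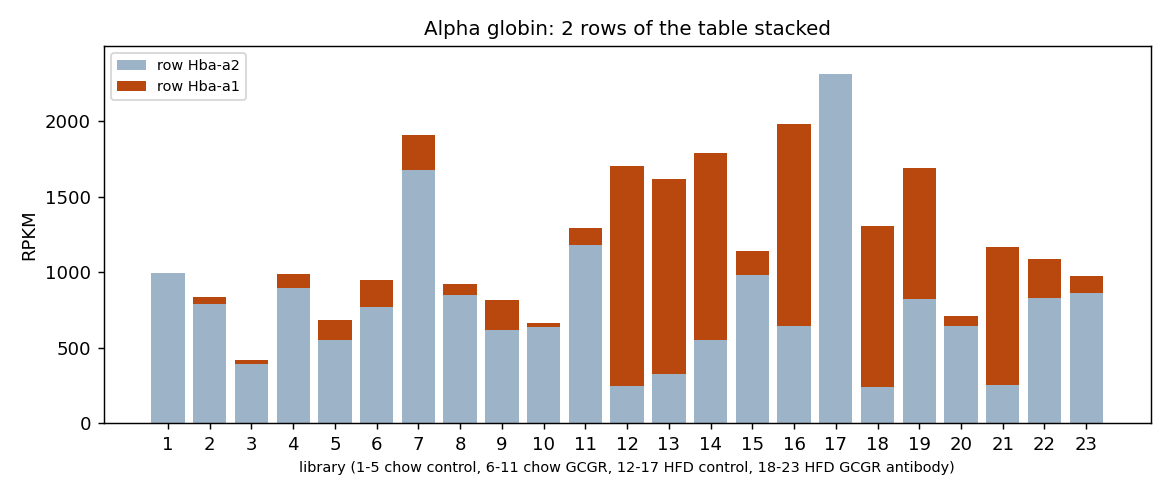
Stacked RPKM of the Hba-a2 and Hba-a1 rows (vertical axis, from 0) in each of the 23 libraries (horizontal axis). The sum reaches 2311 in library 17, where Hba-a1 adds nearly nothing, and 1704 in library 12, where Hba-a1 makes up 85.5% of it.

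Summed alpha globin was at 994, 836, 417, 985 and 684 RPKM on chow with control antibody and from 1139 to 2311 on HFD with control antibody (median 1748). The groups did not overlap, and the difference was 1.20 ± 0.26 (adjusted p = 0.00167). Summed beta globin rose in the same comparison from 502 ± 141 to 1087 ± 242 RPKM, also without overlap (1.13 ± 0.25, adjusted p = 0.00197). Under GCGR antibody the diet differences of the sums were 0.12 ± 0.24 and 0.08 ± 0.24 (adjusted p = 0.742 and 0.823). The antibody differences on HFD were -0.62 ± 0.24 for alpha globin (adjusted p = 0.125) and -0.65 ± 0.24 for beta globin (adjusted p = 0.0984), with overlapping groups. On chow they were 0.46 ± 0.26 and 0.40 ± 0.25 (adjusted p = 0.556 and 0.610). Over the libraries, after subtraction of group means, the alpha and beta sums followed each other with r = 0.983 (n = 23, points that share library scaling).

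Of 26 red cell markers, 25 were in the table and 9 were tested, 4 of which are globin rows. HFD under control antibody raised 2 of those rows (Hbb-b1, and Hbb-b2, which repeats Hbb-bt). Of the 5 tested markers that are not globins it raised 2 (Slc4a1 and Bpgm) and lowered 1 (Car1), with a median log2 fold change of 0.09, and that of all tested genes was -0.03. Slc4a1, the anion exchanger of the red cell membrane, rose from 0.199 ± 0.087 to 0.683 ± 0.254 RPKM (0.48 ± 0.12, adjusted p = 0.00675), and Bpgm, which makes the bisphosphoglycerate of red cells, from 6.91 ± 0.66 to 8.85 ± 1.26 RPKM (0.31 ± 0.08, adjusted p = 0.00756). Car1, a carbonic anhydrase, fell from 4.00 ± 0.45 to 2.02 ± 0.81 RPKM (-0.76 ± 0.16, adjusted p = 0.00147). With the antibody on HFD 1 of the 5 rose, Car1 (0.55 ± 0.15, adjusted p = 0.0304), a call lost after median-ratio scaling (adjusted p = 0.0593) and quantile normalization (0.0832). Under GCGR antibody HFD raised 1 of the 5, Klf1. Of all tested genes HFD called 29.9% under control and 29.8% under GCGR antibody, and the antibody on HFD called 7.45%.

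Most transcripts that define red cell precursors were scarce, though not all. Of the 25 markers 16 had a mean under 0.5 RPKM in every group and 9 a mean under 0.1. Gata1, the erythroid GATA factor, was at 0 in all libraries of HFD with GCGR antibody and reached at most 0.062 elsewhere, and Cldn13 was at 0 in all libraries of chow with control antibody. Klf1, by contrast, was at 0.999 ± 0.261 RPKM on chow and 1.76 ± 0.52 on HFD with GCGR antibody. With control antibody Klf1 was at 1.46 ± 0.47 on chow and 1.595 ± 0.318 on HFD. Its highest mean thus stood in the group with the lowest Alas2. With all alpha and beta globin rows (Hba-a1 included, Hbb-b2 left out as a repeat of Hbb-bt), the red cell markers summed to 726.5 to 1653 RPKM on chow and 1822 to 3708 on HFD with control antibody, and to 1110 to 3095 and 1194 to 2723 with GCGR antibody. The 21 markers that are not globins summed to 13.3 to 15.1 on chow and 13.8 to 18.04 on HFD with control antibody and 12.7 to 18.2 and 13.6 to 18.2 with GCGR antibody. The level of Alas2, 51.6 RPKM on average, was above the summed level of these 21 markers in every group. Most of these markers were scarce, and which cells the Alas2 transcripts came from was not tested.

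Alas2 did not follow the globins across libraries. After subtraction of group means its correlation with summed alpha globin was 0.09 and with summed beta globin 0.04 (n = 23, same libraries and scaling), and 0.33 and 0.28 without libraries 19 and 20. Libraries 19 and 20 held the lowest Alas2 values of all, 22.97 and 29.0 RPKM, with 1021 and 470 RPKM of summed beta globin. With the summed globin level as a covariate, chosen after the values were seen, the antibody difference of Alas2 on HFD was -0.71 ± 0.12 (adjusted p = 0.00143). With the mean of Hba-a1 and Hbb-bt as the covariate it was -0.73 ± 0.10 (adjusted p = 1.31e-04). The Hba-a1 row depends on how reads were shared with Hba-a2, so this covariate is an uncertain measure of the globin level.

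**Figure D4:**
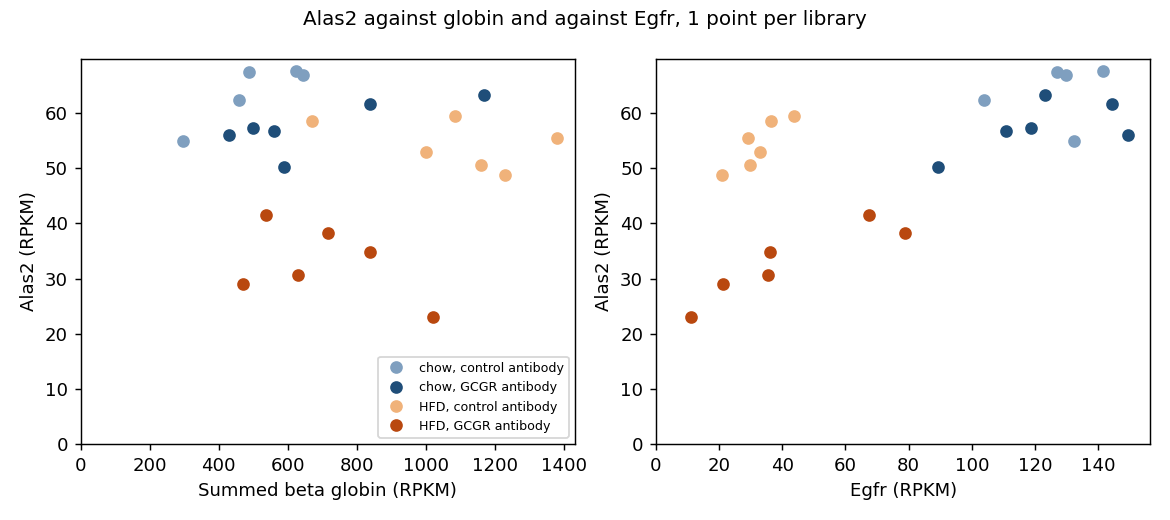
Alas2 (vertical axis, RPKM) against summed beta globin (left) and against Egfr (right), both in RPKM, with 1 point per library coloured by group. At like beta globin levels the HFD libraries with GCGR antibody lie below the others, and within that group Alas2 is mostly higher in libraries with more Egfr, from 22.97 at an Egfr of 11.2 to 38.3 at 79.0.

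The genes whose deviations from their group means were most like those of Alas2, among 10271 tested genes with a mean of at least 1 RPKM, were Egfr (r = 0.87), Mup1 (0.86), Mup3 (0.86) and Mup21 (0.85), over 23 libraries that share their scaling. Without libraries 19 and 20 these were 0.71, 0.68, 0.76 and 0.71. Egfr encodes the epidermal growth factor receptor, and the Mup genes encode major urinary proteins, secreted by hepatocytes. Many Mup genes are near-identical in sequence, so single rows may be uncertain, and how far those named here share reads was not tested. The group means did not follow the same order: Egfr fell with HFD from 127 ± 13.99 to 32.2 ± 7.66 RPKM under control antibody (-1.97 ± 0.32, adjusted p = 1.26e-04), and the antibody on HFD gave 0.13 ± 0.30 (adjusted p = 0.826). For Mup3 the correlation over all libraries with group means kept was 0.13.

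For Alas1 the most similar genes were Mcm4 (r = 0.76), Nolc1 (0.76), Phf8 (0.76) and Pik3r1 (0.75), by the same measure. Of these Pik3r1, a regulatory subunit of phosphoinositide 3-kinase, also rose with HFD under GCGR antibody (0.62 ± 0.15, adjusted p = 0.00471) and had r = 0.87 over all libraries with group means kept. Those most similar to Hbb-bt included Hbb-b2 (r = 1), Hbb-b1 (0.95) and Nxt1 (0.69). For Hba-a1, whose row depends on how reads were shared with Hba-a2, they were TrnE (0.76), Kifc2 (0.67), 2410004B18Rik (0.66) and Rnase4 (0.63). Among pairs of the 7 enzymes r ran from -0.58 (Alad and Cpox) to 0.49 (Alas2 and Fech), and without libraries 19 and 20 these pairs were at -0.17 and 0.35. Alas1 and Alas2 had r = 0.04, and 0.31 without those libraries.

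Genes that bring substrates to the pathway or carry heme onward moved in both directions. Of 20 such genes the antibody on HFD raised 1 (Slc25a37) and lowered 3 (Abcb6, Pgrmc2 and Flvcr2), with a median of 0.03 against 0.05 for all tested genes. Of all tested genes that comparison called 5.33% higher and 2.12% lower, and the antibody on chow called 0.946%. Pgrmc2, a heme chaperone, fell from 25.6 ± 3.24 to 19.3 ± 3.00 RPKM (-0.39 ± 0.09, adjusted p = 0.00758). On chow the antibody lowered 1, Flvcr2, a transporter of the same family as the heme exporter Flvcr1, from 1.28 ± 0.38 to 0.64 ± 0.18 RPKM (-0.47 ± 0.11, adjusted p = 0.0303), with the same count after both scalings. After median-ratio scaling the antibody on HFD raised 0 and lowered 4 of the 20, and after quantile normalization it raised 0 and lowered 3.

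HFD raised 3 of the 20 (Iscu, Glrx5 and Pgrmc2) and lowered 3 (Abcb10, Clpx and Pgrmc1) under control antibody, and raised 5 (Abcb8, Tmem14c, Iscu, Glrx5 and Flvcr2) and lowered 2 (Abcb10 and Clpx) under GCGR antibody. The medians were 0.02 and 0.03, against -0.03 and -0.02 for all tested genes. These comparisons called 29.9% and 29.8% of all tested genes. With 20 genes, the diet counts are near what those shares give. Abcb10, an inner-membrane transporter of the mitochondrion, fell under both antibodies, by 0.36 ± 0.08 and 0.45 ± 0.07 (adjusted p = 0.00174 and 1.22e-04). Iscu, the scaffold for iron-sulfur clusters, rose from 56.1 ± 3.82 to 72.9 ± 9.38 RPKM under control antibody (0.36 ± 0.09, adjusted p = 0.00314). Clpx, which acts on the ALAS proteins in mitochondria, was singled out after its values were seen: it fell from 75.0 ± 18.7 to 37.2 ± 14.8 RPKM under control antibody (-1.04, adjusted p = 0.0104) and from 75.5 ± 20.8 to 36.7 ± 21 under GCGR antibody (-1.10, adjusted p = 0.00504). The first of these was lost with the summed globin level as a covariate (adjusted p = 0.308).

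Of 11 genes of heme breakdown and scavenging the antibody on HFD raised 2 and lowered 0, where 7.45% of all tested genes were called (5.33% higher, 2.12% lower). Ugt1a1, which conjugates bilirubin, rose from 221 ± 20.9 to 326 ± 34.6 RPKM (0.56 ± 0.09, adjusted p = 2.29e-04), and Slco1b2, a hepatocyte uptake carrier of organic anions, from 295 ± 30.3 to 419 ± 53.0 (0.50 ± 0.10, adjusted p = 0.00288). The median of the 11 was 0.11 against 0.05 for all tested genes, and on chow none was called. Hmox1, heme oxygenase, had group means of 7.07 to 9.39 RPKM and no called difference, though that of HFD under control antibody (0.39, adjusted p = 0.0691) passed after median-ratio scaling (0.0305) and quantile normalization (0.0376).

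HFD under control antibody raised 1 of the 11, the hemoglobin scavenger Hp, from 2146 ± 431 to 3732 ± 1203 RPKM (0.76 ± 0.18, adjusted p = 0.00354), and lowered 3 (Hmox2, Ugt1a1 and Abcc2). After median-ratio scaling the counts were 3 higher and 3 lower. Under GCGR antibody HFD raised 4 (Blvra, Slco1b2, Hpx and Hp) and lowered 2 (Blvrb and Cd163). Of all tested genes HFD called 29.9% under control antibody and 29.8% under GCGR antibody. Cd163, the macrophage receptor for haptoglobin with hemoglobin, fell from 3.48 ± 0.38 to 1.18 ± 0.56 RPKM (-1.08 ± 0.16, adjusted p = 4.10e-05). It is 1 of the 5 Kupffer markers that were lower there, with Clec4f (-0.83 ± 0.22, adjusted p = 0.00796), Timd4 (-0.47 ± 0.14, adjusted p = 0.0133), Vsig4 (-0.51 ± 0.16, adjusted p = 0.0224) and Slc40a1. These markers summed to 108 to 135 RPKM on chow and 67.2 to 104 on HFD with GCGR antibody, none of the 9 was at 0 in any library, and their part in the Cd163 value was not tested.

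**Figure D5:**
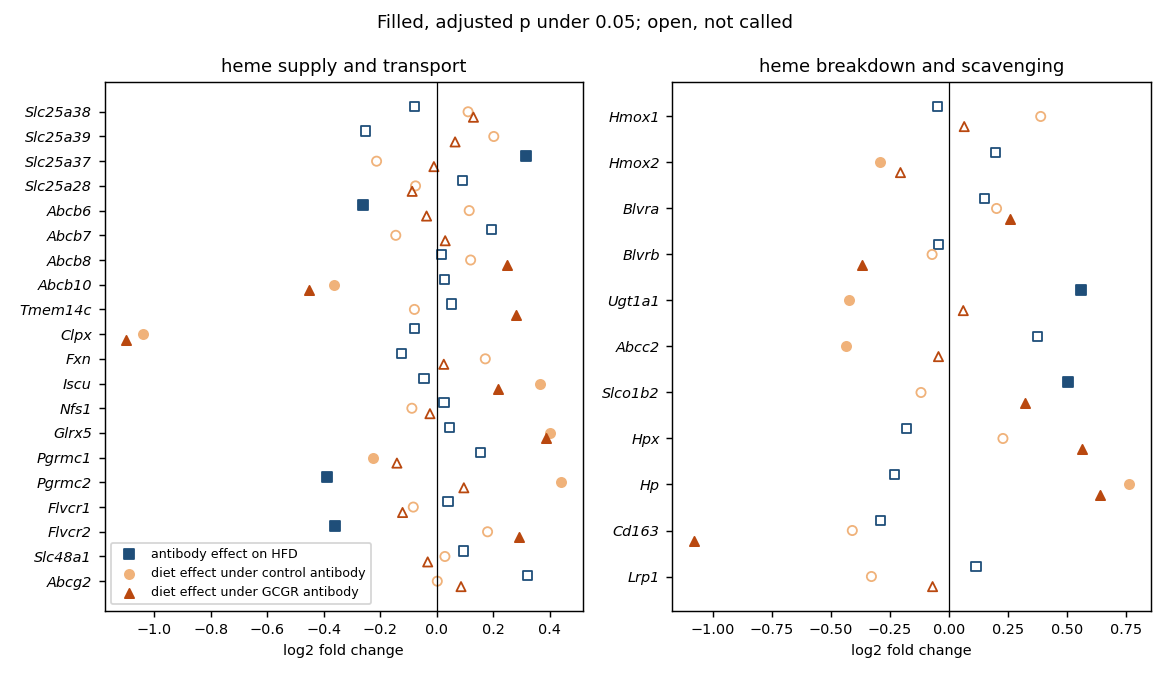
Log2 fold changes (horizontal axis) of 20 genes of heme supply and transport (left) and 11 of heme breakdown and scavenging (right) in 3 comparisons, shown by marker shape; filled markers passed an adjusted p of 0.05. Clpx lies at -1.04 and -1.10 with diet, and Ugt1a1 and Slco1b2 lie at 0.56 and 0.50 with the antibody on HFD.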

How the data were processed

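Liver RNA was measured in 23 libraries, grouped by the diet and antibody in their titles. Single 33-cycle reads of strand-specific KAPA libraries were taken on a HiSeq, per the labels' protocols. The submitters' processing notes name FastQC, bcl2fastq 2.17 and mouse build GRCm38. Which aligner, counter, strand setting and annotation were applied is not given in the sources used here. RPKM per gene is the unit the authors deposited, and since it holds no depth, neither count tests nor counting intervals were used.

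After adding 1 RPKM and taking log2, the 4 group means were fitted to all libraries (R 4.3.3, limma 3.58.1, mean-variance trend, two-sided). Genes at 0.5 RPKM or more in at least 5 libraries were tested, and p-values were adjusted over all of these by Benjamini-Hochberg, with calls under 0.05. The script was tested on simulated data. The alternatives were other pseudocounts (0.1 and 0.5), filters, scalings, fits of the compared groups alone, no trend, globin covariates and leaving out each library. Summed globin rows, their level as a covariate, and summed rows without library 19 were added after seeing the data.

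The members and gene lists were chosen with earlier results of these data known. All members and Uros are named. From each other list at most the 4 called genes with the smallest p in any comparison are given with values, and the 4 genes most like Alas1, Alas2, Hbb-bt and Hba-a1 by Pearson r after subtraction of group means. Positions and sequences come from RefSeq on GRCm38.p6, in which 24375 of the 24475 gene IDs were found. Ahsp, a listed red cell marker, was not analysed here, and some listed genes are not reported here.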

Additional observations from a re-analysis of the deposited data

Results flagged for a closer look

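In 3 of 48 groups of libraries examined, over the 9 genes, Uros and the globin sums, the highest or lowest library lay far from the others by Dixon's criterion, where chance alone gives about 2.4 (1 in 20). Alad was at 108.8 RPKM in library 19 of HFD with GCGR antibody, against 24.0 to 32.7 in the other 5. Alas1 was at 199.6 RPKM in library 9 of chow with GCGR antibody, against 46.6 to 78.9 in the others. Uros was at 11.5 RPKM in library 12 of HFD with control antibody, against 8.03 to 9.20. What set these values apart was not tested.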

How the results depend on the processing

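Over 54 results of the 9 genes (9 genes in 6 comparisons) and 1434 alternatives, 1376 kept their direction and their side of the threshold, 4 lost a call, 23 gained one and 31 turned direction. None of those that turned was called in either fit, and the cause was not tested. Under median-ratio scaling these were Fech for the antibody on chow (-0.018), Hbb-bt for diet under GCGR antibody (0.001) and, for the averaged antibody effect, Alad (-0.02), Cpox (-0.027), Ppox (-0.039) and Fech (-0.002). Quantile normalization turned Urod for diet under control antibody (-0.005) and averaged Ppox (-0.032). Summed globin rows, added after seeing the data, turned Hba-a1 (-0.621 on HFD, -0.081 averaged) and Hbb-bt (0.081), and without library 19 as well Hba-a1 (-0.74 and -0.14) and Alad (-0.182 on HFD, -0.119 for the difference between diets, -0.122 averaged). The summed globin covariate, also added, turned Alad for diet under control antibody (-0.146). Leaving out 1 library gave -0.593 to 0.042 for Alas1 on chow, -0.182 to 0.245 for Alad and -1.334 to 0.768 for Hba-a1 on HFD, -0.187 to 0.164 for Hbb-bt with diet under GCGR antibody, -0.119 to 0.308 for Alad and -0.007 to 0.045 for Urod in the difference between diets, and -0.122 to 0.091 for Alad and -0.012 to 0.033 for Ppox averaged. Of the 9 genes the antibody on HFD called 2 in a fit of those groups alone, 3 with summed globin rows and no library 19, and 1 to 3 without single libraries (2 without library 15, 3 without library 19). Diet under control antibody called 5 in a fit of those groups alone, 6 with summed rows and no library 19, 1 with the summed globin covariate, and 2 to 4 without single libraries. The averaged antibody effect called 2 without a filter and with summed rows and no library 19, and 1 to 2 without single libraries (2 without library 14, 19 or 20). The globin rows have no value under the covariates, which are made from them. RPKM give no depth, so its limit on low genes is unknown. No paired analysis was possible because the library numbers 1 to 23 are unique and the groups share none.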

Other observations

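Iron genes, which supply the metal that Fech inserts, held a large antibody difference on HFD. Hamp, the iron hormone hepcidin, rose from 75.3 ± 94.3 to 505 ± 280 RPKM (SD, n = 6 and 6), by 3.57 ± 0.72 on the log2 scale (limma, adjusted p = 0.00340), and its near-identical neighbour Hamp2 rose by 1.95 ± 0.55 (adjusted p = 0.0331). The groups of Hamp overlapped, with 2.92 to 253 RPKM against 144 to 908.5, and near-identical copies make both rows uncertain. These were the only 2 of 15 iron genes called in that comparison, against 7.45% of all tested genes. After median-ratio scaling or quantile normalization 2 were higher and 2 lower. On chow none was called. HFD under control antibody raised 3 of the 15 (Fth1, Ftl1 and Hjv) and lowered 4 (Tfr2, Hamp, Ireb2 and Bmp6). Under GCGR antibody it raised 2 (Hamp2 and Hjv) and lowered 4 (Tfr2, Slc40a1, Slc11a2 and Bmp6). These comparisons called 29.9% and 29.8% of all tested genes. Hjv, the hemojuvelin gene, rose under both antibodies, by 0.41 ± 0.08 and 0.48 ± 0.07 (adjusted p = 5.38e-04 and 4.49e-05), and Slc11a2, an iron importer, fell by 0.49 ± 0.11 under GCGR antibody (adjusted p = 0.00212).

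Clock genes, of which several act on Alas1 transcription, differed between diets. Of 16, HFD raised 6 and lowered 3 under control antibody, and raised 7 and lowered 4 under GCGR antibody. These comparisons called 29.9% and 29.8% of all tested genes. Clock fell by 0.70 ± 0.13 and 0.88 ± 0.12 (adjusted p = 4.42e-04 and 1.56e-05), Per2 rose by 1.07 ± 0.24 and 1.53 ± 0.23 (adjusted p = 0.00239 and 4.33e-05) and Per1 rose by 0.93 ± 0.28 and 1.52 ± 0.27 (adjusted p = 0.0155 and 2.19e-04). The antibody called 0 of them on chow and 1 on HFD, against 0.946% and 7.45% of all tested genes. The 1 was Nr1d1, which was lower (adjusted p = 0.0493, and 0.0554 after quantile normalization). The labels give no time of sampling, and its part in these differences was not tested.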
